A study of Mus musculus with 6 samples.

Results

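The renin-angiotensin system of the mouse kidney was examined through 9 genes, *Agt*, *Ren1*, *Ace*, *Enpep*, *Mme*, *Agtr1a*, *Agtr1b*, *Agtr2* and *Mas1*, out of the 54532 genes in the deposited table. The members were found by matching the Ensembl gene identifiers of the table to these symbols in GENCODE M21. RNA from whole kidneys was sequenced in 6 libraries, 3 per group, and each library was a pool of 3 mice, so that a group stands for 9 mice and replicate error refers to pools. Controls were KsprtTA mice, whose genotype the sample labels give as WT. KSPAPN mice carried KsprtTA together with TRE-Adiponectin, and the labels describe them as kidney adiponectin overexpression. KsprtTA places the doxycycline-dependent activator rtTA in the tubular epithelium of the whole nephron, proximal tubule and collecting duct included. Both groups carried it and were fed chow with doxycycline at 600 mg per kg of diet for 4 days before harvest. The groups therefore differed by the TRE-Adiponectin transgene, in male mice on a C57BL/6 background, and their age is not given in the sources used here. Kidney is the tissue on the labels, although their text on RNA extraction names liver.

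The renin-angiotensin system is a chain of proteolytic steps. Angiotensinogen, the precursor made from *Agt*, is cut by renin, the product of *Ren1*, to angiotensin I, and angiotensin-converting enzyme, the product of *Ace*, turns angiotensin I into the pressor peptide angiotensin II. Angiotensin II acts through type 1 receptors (*Agtr1a* and *Agtr1b* in mice) to constrict vessels and retain sodium, and through the type 2 receptor *Agtr2*. Other peptidases work on the same peptides. Aminopeptidase A from *Enpep* shortens angiotensin II, neprilysin from *Mme* forms angiotensin 1-7, and the receptor encoded by *Mas1* responds to angiotensin 1-7. In the kidney, renin is made by juxtaglomerular cells of the afferent arteriole and angiotensinogen by proximal tubule cells, while ACE, neprilysin and aminopeptidase A sit in the brush border of the proximal tubule.

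Of these genes, *Ace* fell in KSPAPN kidneys, and it alone among the members passed an adjusted p under 0.05. The other brush border peptidases among the members, *Mme* and *Enpep*, had lower values in every KSPAPN library than in every Control library, but did not pass. Precursor, renin and the angiotensin II receptor *Agtr1a* had overlapping values in the 2 groups.

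Stretches of the promoters are shown for *Ace*, as the member that passed the test, for *Enpep*, as a brush border member whose groups stood apart without passing, and for *Agt*, as the precursor whose groups overlapped. Each is the 150 bases before a transcription start, 5′ to 3′ on the gene's own strand, from the RefSeq promoter table of GRCm38.p6. Capitals mark the TATA box letters TATAAA, the CCAAT box letters CCAAT and the GC box letters GGGCGG, read on either strand and lying wholly within the stretch, and positions count back from the start, with −1 as the base just before it.
*Ace*, first start, chr11:105967798-105967947, plus strand: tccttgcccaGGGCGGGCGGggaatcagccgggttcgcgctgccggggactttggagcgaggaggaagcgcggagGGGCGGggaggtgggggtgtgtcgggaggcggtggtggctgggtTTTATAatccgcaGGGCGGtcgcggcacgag
*Ace*, second start, chr11:105975039-105975188, plus strand: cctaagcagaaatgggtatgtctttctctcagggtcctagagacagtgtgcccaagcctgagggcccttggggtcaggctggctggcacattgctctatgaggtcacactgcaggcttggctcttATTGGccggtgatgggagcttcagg
*Enpep*, chr3:129332750-129332899, minus strand: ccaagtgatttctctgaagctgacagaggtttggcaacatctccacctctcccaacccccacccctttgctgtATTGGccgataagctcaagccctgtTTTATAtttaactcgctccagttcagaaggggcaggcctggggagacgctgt
*Agt*, chr8:124569707-124569856, minus strand: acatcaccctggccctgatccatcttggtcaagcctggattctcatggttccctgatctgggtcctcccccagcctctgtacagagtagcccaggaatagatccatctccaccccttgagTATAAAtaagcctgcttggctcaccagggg

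The 2 starts of *Ace* differ in these letters. The first start, in exon 1 of a transcript with 25 exons, had GC boxes at −140, −136, −75 and −18 from the start and TATA letters of the opposite strand at −31. The second start lies 7241 bases downstream in intron 12 of that transcript and had a CCAAT match at −25, with no TATAAA or GGGCGG in the window. In mammals the first start serves the somatic enzyme and an internal start serves the shorter testis enzyme. Because the table gives 1 value per gene, reads from the 2 starts were counted together here.

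Windows of 300 bases, 250 before a start and 50 after it, were searched on both strands in 32851 RefSeq promoters, and 8 of the 9 members had a window, *Agtr1a* being the exception. TATAAA was found in 13.6% of all windows. Among the members it lay at −30 in *Agt* and −29 in *Ren1*, at −31 in *Ace* and *Agtr1b*, and at −52 and −1 in *Enpep*. CCAAT was found in 37.4% of all windows and GGGCGG in 35.7%, and *Mme* held matches to both, spread over its 3 annotated starts. The nuclear receptor letters AGGTCA, present in 16.3% of all windows, was matched at −50 of the second *Ace* start. The letters GTTAAT, in 7.10% of all windows, and TGACGTCA, in 1.79%, were absent from the members' windows. A match describes letters in a window and does not show binding.

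Total counts were between 17183358 and 20871173 per library. The transgene's product served to check the labels, and *Adipoq*, which encodes adiponectin, had 2, 0 and 2 reads in the Control libraries and 24629, 17483 and 26811 in the KSPAPN libraries. Kidney markers were abundant, with *Slc34a1*, the sodium phosphate cotransporter of the proximal tubule, at 1212 ± 136 FPKM and *Umod*, the uromodulin gene of the thick ascending limb, at 678 ± 52.6 FPKM in Control (SD, n = 3). The hepatocyte gene *Alb* stood at 2.05 ± 0.791 FPKM in Control (SD, n = 3). Mitochondrially encoded genes took between 7.69% and 9.32% of the reads in Control libraries and between 8.41% and 12.3% in KSPAPN libraries. In a test across 16017 genes with edgeR, 424 genes (2.65%) passed an adjusted p under 0.05, 361 lower and 63 higher in KSPAPN. With scaling by total counts alone the calls were 195 lower and 71 higher, so that the share of higher calls moved from 14.9% to 26.7%.

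In Control kidneys the members spanned a wide range of levels per length of transcript. FPKM, fragments scaled by transcript length and library size, were highest for *Ren1* (mean 52.0), followed by *Ace* (47.1), *Agt* (39.3), *Enpep* (27.9), *Mme* (11.97), *Agtr1a* (11.2) and *Mas1* (0.902). *Ren1*, *Ace* and *Agt* had overlapping libraries and their order among themselves is not resolved, nor is that of *Mme* and *Agtr1a*. In KSPAPN the mean of *Agt* (33.3 FPKM) lay above that of *Ace* (27.6 FPKM), and that of *Agtr1a* (10.7 FPKM) above that of *Mme* (8.99 FPKM), again with overlapping libraries in each pair. *Agtr1b* and *Agtr2* were near 0.

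**Figure D1:**
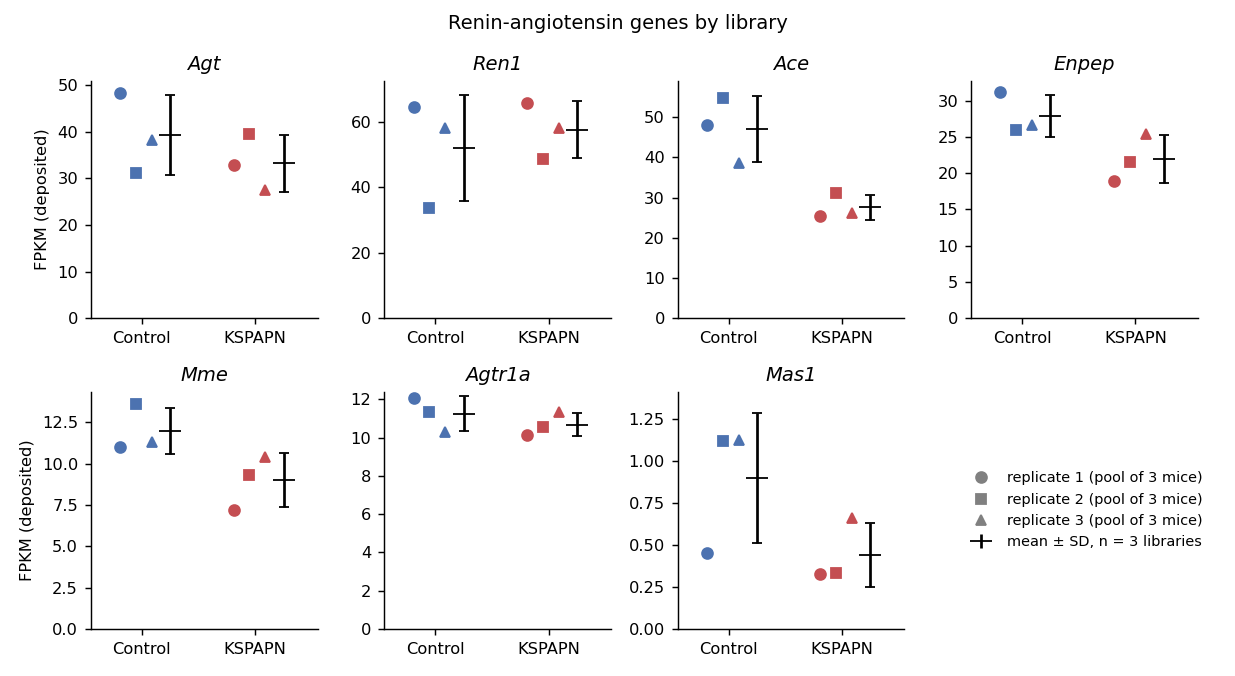
Deposited FPKM (vertical axes, from 0) of the 7 members that passed the filter on low counts, for Control (blue) and KSPAPN (red) libraries, with a marker shape for each replicate number and bars for mean ± SD (n = 3 libraries). For *Ace*, *Enpep* and *Mme* the KSPAPN points lie below the Control points, with *Ace* at 25.4 to 31.1 against 38.5 to 54.8 FPKM, while the groups overlap for *Agt*, *Ren1*, *Agtr1a* and *Mas1*.

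At the head of the chain, neither the precursor nor renin passed the test. *Agt* (ENSMUSG00000031980, chr8:124556534-124569706, minus strand, GRCm38) stood at 48.4, 31.3 and 38.2 FPKM in the Control libraries and at 32.8, 39.5 and 27.4 FPKM in the KSPAPN libraries. The lowest Control library lay below the highest KSPAPN library, and the groups overlapped. The log2 fold change of *Agt*, KSPAPN over Control, was −0.24 (SE 0.17, 95% interval −0.60 to 0.13), with an adjusted p of 0.483 by edgeR's quasi-likelihood test.

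*Ren1* (ENSMUSG00000070645, chr1:133350510-133360325, plus strand) had the widest spread of the abundant members. It was at 64.4, 33.7 and 58.0 FPKM in Control and at 65.8, 48.5 and 58.2 FPKM in KSPAPN, so that replicate 2 was the lowest library of both groups. The log2 fold change of *Ren1* was 0.15 (SE 0.21, 95% interval −0.31 to 0.61, edgeR adjusted p 0.744). Its sign rested on 1 library, and without Control replicate 2 the log2 fold change was −0.084. The interval leaves room for differences of either sign, so similar levels are not shown.

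Genes of renin cells and of the control of renin were described from a list of 15, of which 14 passed the filter on low counts. None passed an adjusted p under 0.05 by edgeR or DESeq2. At an unadjusted p under 0.05 by edgeR, 1 was lower and 0 were higher, against 11.2% and 7.52% of all genes tested. The list's median log2 fold change was 0.051, beside 0.012 over all genes tested. *Foxd1*, a transcription factor of the stromal lineage that gives rise to renin cells, was the gene past the unadjusted threshold, with 45, 19 and 30 reads in Control and 17, 16 and 16 in KSPAPN (log2 fold change −1.13, SE 0.39, edgeR adjusted p 0.158). The most abundant genes of the list were *Adcy6*, an adenylyl cyclase, at 23.5 ± 1.59 FPKM in Control and 24.5 ± 3.55 in KSPAPN, and *Ptges*, a prostaglandin E synthase, at 8.52 ± 0.754 and 7.99 ± 0.242 (SD, n = 3). *Akr1b7*, an aldo-keto reductase carried by renin cells, had overlapping groups at 1.85 ± 0.681 and 2.57 ± 1.21 FPKM (SD, n = 3). For the renin receptor gene *Atp6ap2* the KSPAPN libraries (43.5, 49.0 and 51.4 FPKM) lay above the Control libraries (40.2, 43.1 and 39.7 FPKM), and its log2 fold change of 0.23 (SE 0.091) did not pass (edgeR adjusted p 0.207).

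*Ace* (ENSMUSG00000020681, chr11:105967945-105989964, plus strand) encodes the enzyme that forms angiotensin II. It stood at 48.1, 54.8 and 38.5 FPKM in the Control libraries and at 25.4, 31.1 and 26.1 FPKM in the KSPAPN libraries, with means of 47.1 ± 8.16 and 27.6 ± 3.11 (SD, n = 3). The highest KSPAPN library was below the lowest Control library. The counts behind these values were 4708, 5023 and 3581 reads in Control and 3131, 3009 and 2863 in KSPAPN. *Ace* fell by 0.77 on the log2 scale (SE 0.13, 95% interval −1.06 to −0.48), with an edgeR adjusted p of 0.0181 (unadjusted 1.42e-04). On the linear scale the level fell by 41.3%. DESeq2 gave an adjusted p of 5.26e-06, and no adjusted p under 0.05 for another member, while it called 924 (6.33%) of 14588 genes in all, 5.11% lower. In whole tissue, fewer cells of a type and less RNA per cell cannot be told apart.

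*Ace* was thus 1 of 7 members tested that passed an adjusted p under 0.05 and was lower, against 2.25% of all genes tested. The call did not hold in every fit of fewer libraries. Leaving out Control replicate 1 gave an edgeR adjusted p of 0.0948 and a log2 fold change of −0.76. Leaving out Control replicate 2 gave 0.0632 and −0.65, and leaving out KSPAPN replicate 3 gave 0.0977 and −0.73. The adjusted p stayed under 0.05 when Control replicate 3 or KSPAPN replicate 1 or 2 was left out. With limma on log2(FPKM + 1) the adjusted p was 0.0599. In an exact permutation test of mean FPKM, two-sided, p was 0.1, the smallest that 3 libraries against 3 can give.

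The antisense gene *Gm11651* overlaps *Ace* and shares 2.10% of the 100-base stretches of its longest transcript. It took 1 read over all libraries, against 3581 or more *Ace* reads in each Control library. How reads in the overlap were counted, and with what use of strand, is not given. The low count of *Gm11651* therefore does not show that the overlap left *Ace* counts unchanged. Other members shared no stretch of 100 bases with another annotated gene.

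*Mme* (ENSMUSG00000027820, chr3:63241537-63386030, plus strand), the gene of neprilysin, was at 11.0, 13.6 and 11.3 FPKM in Control and at 7.21, 9.34 and 10.4 FPKM in KSPAPN. The groups did not overlap, with KSPAPN replicate 3 close to Control replicate 1. The log2 fold change of *Mme* was −0.41 (SE 0.14, 95% interval −0.71 to −0.11), with an unadjusted p of 0.0124 and an adjusted p of 0.142 by edgeR. *Mme* has a long transcript of 8039 bases with a GC content of 38.0%. After a trend of each library against GC content and transcript length was removed, its log2 fold change was −0.62 and the edgeR adjusted p 0.0129.

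*Enpep* (ENSMUSG00000028024, chr3:129269175-129332720, minus strand), the gene of aminopeptidase A, was at 31.2, 26.0 and 26.6 FPKM in Control and at 18.9, 21.6 and 25.4 FPKM in KSPAPN. Here too all KSPAPN libraries lay below all Control libraries, by a narrow gap between KSPAPN replicate 3 and Control replicate 2. The log2 fold change of *Enpep* was −0.34 (SE 0.12, 95% interval −0.61 to −0.077), with an unadjusted p of 0.0165 and an adjusted p of 0.160 by edgeR. KSPAPN replicate 1 was the lowest library for *Ace*, *Mme* and *Enpep* alike.

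*Mas1* (ENSMUSG00000068037, chr17:12841079-12868143, minus strand), the receptor gene for angiotensin 1-7, was scarce, with 22, 51 and 52 reads in Control and 20, 16 and 36 in KSPAPN. These are 0.453, 1.12 and 1.13 FPKM against 0.328, 0.334 and 0.663 FPKM, and Control replicate 1 lay within the KSPAPN range. The log2 fold change of *Mas1* was −1.02 (SE 0.44, 95% interval −2.0 to −0.034, unadjusted p 0.0438, edgeR adjusted p 0.251). The antisense RNA *Airn* overlaps *Mas1* and had 403% as many reads over the 6 libraries, and the use of strand in counting is not given in the sources used here, which makes the *Mas1* value uncertain.

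Of the angiotensin II receptors, only *Agtr1a* (ENSMUSG00000049115, chr13:30336441-30382867, plus strand) was expressed at a level that could be tested. It was at 12.1, 11.4 and 10.3 FPKM in Control and at 10.2, 10.5 and 11.3 FPKM in KSPAPN. The groups overlapped, and the spread within each was small. The log2 fold change of *Agtr1a* was −0.069 (SE 0.11, 95% interval −0.31 to 0.17, edgeR adjusted p 0.778), so that a fall as large as that of *Ace* lies outside the interval. The sense intronic gene *Gm48161* lies within *Agtr1a* and took 5 to 24 reads per library, beside 504 to 659 for *Agtr1a*.

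*Agtr1b* (ENSMUSG00000054988, chr3:20314473-20367177, minus strand) had 0, 2 and 0 reads in Control and 0 in every KSPAPN library. No reads among 58842996 allow a level of up to 0.0510 CPM, counts scaled to the library total, in KSPAPN, taken as 3 counts, and the exact 95% upper limit is 0.0627 CPM. *Agtr2* (ENSMUSG00000068122, chrX:21484544-21489164, plus strand) had 1 read in each group, or 0.0188 CPM in Control (exact 95% interval 0.000475 to 0.105) and 0.0170 CPM in KSPAPN (exact 95% interval 0.000430 to 0.0947). These bounds cover counting error only. No difference in either receptor was detectable at this depth.

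Over the 7 members tested, 6 had a log2 fold change below 0 and 1 above, with a median of −0.34 beside 0.012 over all genes tested. At an unadjusted p under 0.05, 4 of 7 were lower (*Ace*, *Mme*, *Enpep* and *Mas1*) and 0 were higher, against 11.2% and 7.52% of all genes tested. In 3 of 7 (*Ace*, *Mme* and *Enpep*) the FPKM of the groups did not overlap and were lower, against 13.5% of all genes tested, and in 0 of 7 they were higher, against 10.8% (24.4% in either direction). By CPM the same 3 members had lower groups without overlap, against 13.1% of all genes tested. These counts describe the members, and no test of the list as a whole was made.

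**Figure D2:**
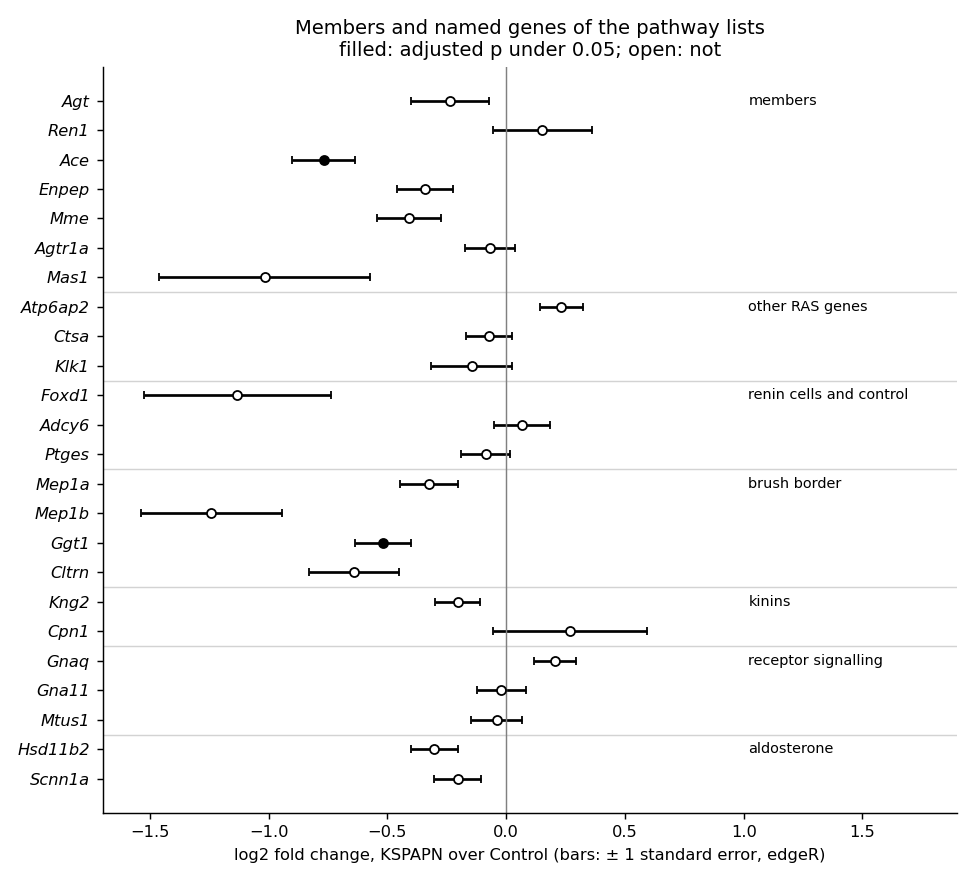
log2 fold change, KSPAPN over Control, by edgeR (horizontal axis, bars ± 1 SE) for the 7 members tested and the named genes of the pathway lists, filled where the adjusted p was under 0.05. *Ace* (−0.77) and *Ggt1* (−0.52) are filled, and *Ren1* (0.15) is the member to the right of 0.

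Of 14 further genes of the renin-angiotensin system, 10 passed the filter, with a median log2 fold change of −0.033. By edgeR 0 passed an adjusted p under 0.05. At an unadjusted p under 0.05, 0 were lower and 2, *Atp6ap2* and *Lnpep*, were higher, against 11.2% and 7.52% of all genes tested. DESeq2 called none of this list. *Lnpep*, the gene of the aminopeptidase that binds angiotensin IV, had overlapping groups (log2 fold change 0.23, edgeR adjusted p 0.265). *Anpep*, the gene of aminopeptidase N, which shortens angiotensin III in the same brush border, stood at 48.6 ± 2.14 FPKM in Control and 48.3 ± 4.18 in KSPAPN (SD, n = 3), with a log2 fold change of −0.0017 (SE 0.095). The most abundant genes of the list were the tissue kallikrein gene *Klk1*, at 1214 ± 136 and 1096 ± 286 FPKM, and *Ctsa*, the gene of cathepsin A, at 60.7 ± 4.67 and 57.5 ± 4.27 FPKM (SD, n = 3). The groups overlapped for both. The chymase gene *Cma1* and *Cpa3*, both mast cell genes, had no more than 3 reads in any library, and *Ctsg* and the receptor gene *Mrgprd* had none.

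Ratios within a library do not depend on how the library is scaled. The log2 ratio of *Ace* to *Mme* in FPKM was 1.97 ± 0.18 in Control and 1.63 ± 0.26 in KSPAPN (SD, n = 3, two-sided exact permutation p 0.2). That of *Ace* to *Enpep* was 0.75 ± 0.29 and 0.33 ± 0.26 (SD, n = 3), and its groups did not overlap (exact permutation p 0.1, the smallest this design allows). With 3 libraries against 3 this test cannot reach 0.05, and no other test of the 2 ratios was made.

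Other genes of the brush border were described from a list of 8 proteins, all of them tested. At an unadjusted p under 0.05, 4 were lower and 0 were higher by edgeR, against 11.2% and 7.52% of all genes tested. Only 1, *Ggt1*, passed an adjusted p under 0.05 and was lower, against 2.25% of all genes tested. *Ggt1* encodes gamma-glutamyl transferase, which starts the breakdown of glutathione, and stood at 364, 411 and 335 FPKM in Control and at 229, 290 and 252 FPKM in KSPAPN. It fell by 0.52 on the log2 scale (SE 0.12, edgeR adjusted p 0.0483), a value close to the threshold. After the GC content and length correction its log2 fold change was −0.36 and the adjusted p 0.187. Without each library in turn the adjusted p lay between 0.0628 and 0.196, except without KSPAPN replicate 2, where the call was kept (0.0483).

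*Mep1b*, the beta subunit of the metalloprotease meprin, went from 97.1, 91.4 and 68.1 FPKM in Control to 17.4, 49.3 and 41.9 FPKM in KSPAPN without passing (log2 fold change −1.24, SE 0.30, edgeR adjusted p 0.0568). Without KSPAPN replicate 1, its lowest library, the log2 fold change was −0.89 and the adjusted p 0.0116. It also passed on leaving out KSPAPN replicate 2 (0.0438) and after the GC content and length correction (0.0479). It did not pass by DESeq2 (0.0809), RLE factors (0.0590), total counts only (0.0702) or either limma fit (0.115 and 0.116). Nor did it pass without any single Control replicate or without KSPAPN replicate 3 (0.0711 to 0.222). Its partner *Mep1a* was at 576 ± 49.5 and 458 ± 61.1 FPKM (SD, n = 3, log2 fold change −0.33, edgeR adjusted p 0.186), with overlapping groups. *Cltrn*, whose product collectrin assists amino acid transport, had groups that did not overlap, at 684, 744 and 552 FPKM in Control and 293, 535 and 440 FPKM in KSPAPN (log2 fold change −0.64, edgeR adjusted p 0.107, DESeq2 adjusted p 0.00699). After the GC content and length correction its edgeR adjusted p was 0.0468. The adjusted p was 0.182 and 0.184 by limma, and 0.0610 to 0.319 by edgeR with single libraries left out. The remaining members of the list, *Dpp4*, *Dpep1*, *Xpnpep2* and *Folh1*, had log2 fold changes between 0.092 and 0.23 and overlapping groups.

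**Figure D3:**
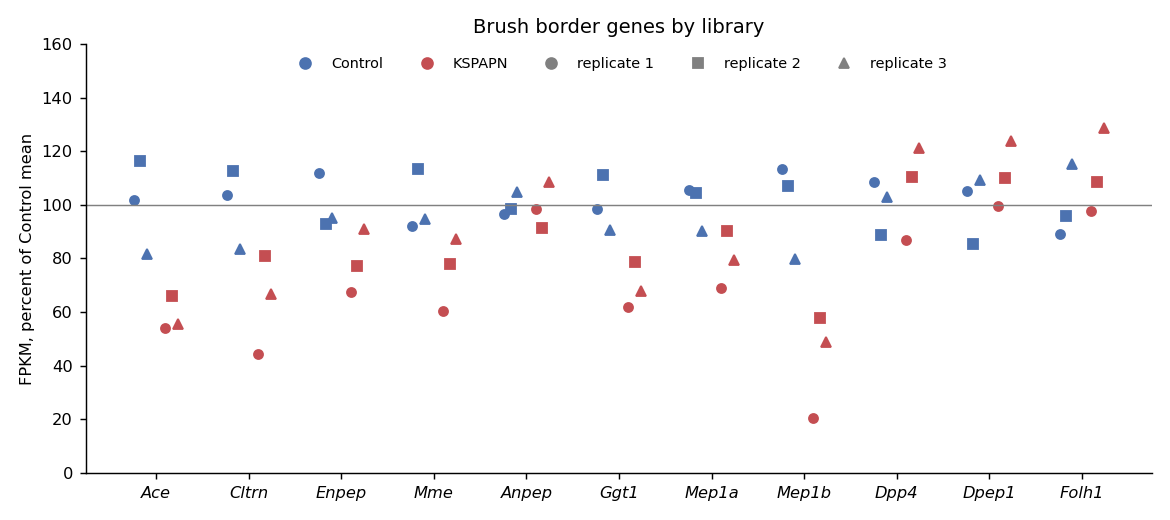
FPKM of brush border genes in each library as a percent of the gene's Control mean (vertical axis, from 0), Control in blue and KSPAPN in red, marker shapes by replicate number. The red points lie below the blue points for *Ace*, *Cltrn*, *Enpep*, *Mme*, *Ggt1* and *Mep1b*, and overlap them for *Anpep*, *Mep1a*, *Dpp4*, *Dpep1* and *Folh1*.

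Markers of cell types were read beside these genes, as counts without a test of any list. Of 12 proximal tubule markers, 10 had a log2 fold change below 0 (median −0.22), against 7710 of all 16017 genes tested. By edgeR 1 of the 12 passed and was lower, against 2.25% of all genes tested. It was the organic anion transporter gene *Slc22a6* (−0.46, edgeR adjusted p 0.0388). Its call was kept when KSPAPN replicate 1 was left out and lost when any other single library was, at adjusted p of 0.0819 to 0.144. The call was also lost with total counts only (0.0521) and with both limma fits (0.0697 in each). DESeq2 called 2 proximal tubule markers lower, *Slc22a6* and *Slc13a3*. *Slc13a3* had groups without overlap and a log2 fold change of −0.49 (edgeR adjusted p 0.0503, DESeq2 adjusted p 0.00172). The summed FPKM of the 12 proximal tubule markers was 3383 to 3758 in Control and 3126 to 3331 in KSPAPN libraries. Of 5 markers of the straight part of the proximal tubule, S3, 3 passed and were lower, against the same 2.25% of all genes. These were *Slc7a13*, *Slc22a13* and *Cyp7b1*, while *Slc5a1* had a log2 fold change of 0.19. The summed FPKM of the 5 markers was 375 to 544 in Control and 116 to 232 in KSPAPN. Only *Cyp7b1* passed when Control replicate 1, Control replicate 2 or KSPAPN replicate 3 was left out, where the edgeR adjusted p of *Slc7a13* was 0.113, 0.0770 and 0.0972 and that of *Slc22a13* 0.162, 0.0804 and 0.161. *Slc22a13* also lost its call on leaving out Control replicate 3 (0.140) and after the GC content and length correction (0.127). The same held with RLE factors (0.0501), total counts only (0.0661) and limma at pseudocounts of 1 and 0.1 (0.0997 and 0.0988). *Slc7a13* lost its call with both limma fits as well (0.0782 and 0.0759). Of 6 genes higher in the kidneys of male mice, all had log2 fold changes below 0 (median −0.42), against 7710 of all 16017 genes tested. Without Control replicate 2 or KSPAPN replicate 1, 2 of the 6 were above 0 (median −0.20 in each fit). With total counts only, 1 was above 0. The gene *Cyp7b1*, which is also on the S3 list, passed (−2.10, edgeR adjusted p 0.00581), against 2.25% of all genes lower. The part of these markers in the values of *Ace*, *Mme* and *Enpep* was not tested.

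Markers of cell types outside the proximal tubule were read in the same way, without a list for the collecting duct. None of 7 endothelial markers passed an adjusted or an unadjusted p under 0.05 by edgeR, and DESeq2 called none, with 6 above 0 and a median log2 fold change of 0.11, and their summed FPKM was 36.8 to 45.9 in Control and 37.7 to 47.9 in KSPAPN. Endothelium is another source of *Ace*, and its part in the *Ace* values was not tested. Of 6 markers of vascular smooth muscle and pericytes, 1 was higher at an unadjusted p under 0.05, against 7.52% of all genes tested. It was *Rgs5* (log2 fold change 0.49, edgeR adjusted p 0.134). The summed FPKM of the 6 markers was 29.2 to 37.4 in Control and 34.7 to 42.9 in KSPAPN. All 4 podocyte markers had log2 fold changes above 0 (median 0.19), against 8307 of all 16017 genes tested. Without KSPAPN replicate 3, 3 of the 4 were below 0 (median −0.021), and without Control replicate 2, 2 were (median 0.024). None passed an adjusted or an unadjusted p under 0.05 by edgeR or an adjusted p under 0.05 by DESeq2. The summed FPKM of the 4 podocyte markers was 29.0 to 44.6 in Control and 38.6 to 54.8 in KSPAPN. Of 4 thick ascending limb markers, *Slc12a1*, the target of loop diuretics, rose from 196 ± 14.5 to 279 ± 27.6 FPKM (SD, n = 3, log2 fold change 0.52, edgeR adjusted p 0.0437), with no overlap between groups. This call was kept without KSPAPN replicate 1 and lost without any other single library, where the adjusted p lay between 0.0744 and 0.193. *Umod*, *Kcnj1* and *Cldn16* had overlapping groups, with log2 fold changes of −0.045, 0.087 and 0.17. The median of the 4 markers was 0.13, and their summed FPKM was 883 to 996 in Control and 892 to 1168 in KSPAPN. Over all genes tested, 0.393% were called higher. Among 5 hepatocyte and 5 adipocyte markers, none of those tested passed an adjusted or an unadjusted p under 0.05 by edgeR, DESeq2 called none, and their summed FPKM reached at most 21.8 and 1.63 in any library.

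Downstream and neighbouring pathways held no gene past an adjusted p under 0.05 by edgeR or DESeq2. Of 7 genes of angiotensin receptor signalling, 1 was higher at an unadjusted p under 0.05, against 7.52% of all genes tested. It was the Gq subunit gene *Gnaq* (9.25 ± 0.547 against 10.6 ± 0.537 FPKM, SD, n = 3, log2 fold change 0.21, edgeR adjusted p 0.243). The most abundant of this list were *Gna11*, a related subunit, and *Mtus1*, a partner of the type 2 receptor, with log2 fold changes of −0.021 and −0.039. Of 7 genes of the aldosterone pathway, 2 were lower at an unadjusted p under 0.05, against 11.2% of all genes tested. These were *Hsd11b2* and *Tsc22d3*. *Hsd11b2*, whose enzyme keeps glucocorticoids from the mineralocorticoid receptor, stood at 94.3, 83.4 and 102 FPKM in Control and 78.0, 73.3 and 74.7 FPKM in KSPAPN (log2 fold change −0.30, edgeR adjusted p 0.133). *Scnn1a*, the next most abundant of the list, was at 33.8 ± 2.58 and 29.2 ± 2.13 FPKM (SD, n = 3, edgeR adjusted p 0.30), and the epithelial sodium channel genes *Scnn1a*, *Scnn1b* and *Scnn1g* had log2 fold changes of −0.20, 0.098 and 0.080.

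Kinins are also substrates of ACE and neprilysin. Of 6 kinin genes, 4 were tested and none passed an unadjusted p of 0.05 by edgeR, and DESeq2 called none. *Kng2*, a kininogen gene, was at 95.8, 85.0 and 87.3 FPKM in Control and 70.3, 82.7 and 78.9 FPKM in KSPAPN, without overlap (log2 fold change −0.21, edgeR adjusted p 0.276). *Cpn1*, a kininase subunit gene, varied from 4.01 to 11.2 FPKM among the Control libraries alone. The bradykinin receptor gene *Bdkrb2* had 9 to 35 reads per library and its neighbour *Bdkrb1* had 5 or fewer.

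The genes whose pattern over the 6 libraries was most like that of *Ace*, among 9994 genes with a mean log2 CPM of at least 3, were *Rnf186*, a ubiquitin ligase gene, *Coasy*, the gene of coenzyme A synthase, and *Etfa*, an electron transfer flavoprotein gene, with Pearson r of 0.999, 0.998 and 0.996 on log2 CPM. For *Ren1* they were *Ccdc120*, *Csrnp1* and *Mbtps1*, with r of 0.989, 0.988 and 0.988. These values describe 6 points that share their libraries and, for *Ace*, a difference between the groups, and were picked as the highest of a large search.

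**Figure D4:**
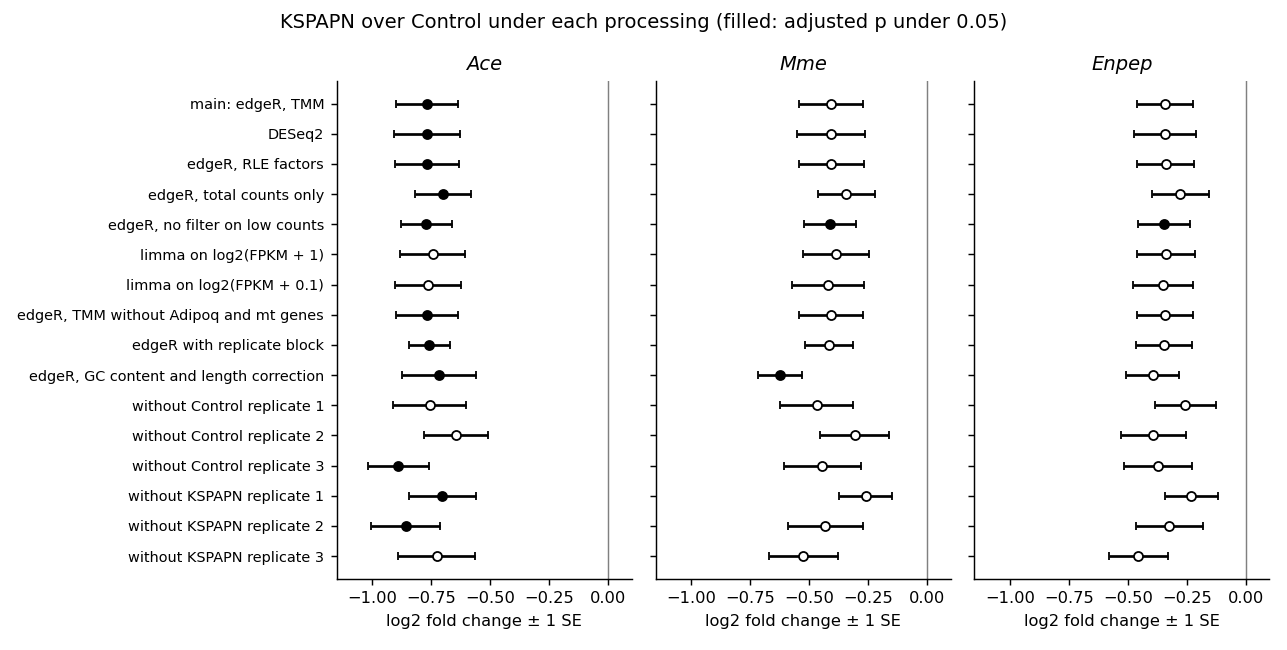
log2 fold change, KSPAPN over Control (horizontal axes, bars ± 1 SE), of *Ace*, *Mme* and *Enpep* under each processing and with each library left out, filled where the adjusted p was under 0.05. All points lie below 0. *Ace* is open under both limma fits and without Control replicates 1 or 2 or KSPAPN replicate 3, and *Mme* and *Enpep* are filled only without the filter on low counts and, for *Mme*, after the GC content and length correction.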

How the data were processed

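Whole kidneys of Control and KSPAPN mice were sequenced in 6 libraries, grouped by their labels. The authors deposited raw read counts per gene, without normalization, and FPKM, scaled by gene length and library size. The submitters' processing notes name STAR 2.5, TopHat, HTSeq 0.6.1, DESeq2 and edgeR without saying which made which column. Genome build, annotation and strand were not given in the sources used here. mRNA was enriched with oligo(dT).

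Identifiers were matched to GENCODE M21 (GRCm38), where 54495 of 54532 genes were found and 37 were not. Counts were tested with edgeR 4.0.16 in R 4.3.3, by its quasi-likelihood test with TMM scaling. Genes entered where they passed filterByExpr at a minimum count of 10 and a minimum total of 15, and p-values of these 16017 genes were adjusted together after Benjamini and Hochberg. The common dispersion was 0.0225. Intervals of fold changes use the error of that fit. FPKM and ratios were compared with two-sided exact permutation tests (SciPy 1.17.1). Tables and plots were made with Python 3.11.15, pandas 2.3.3 and matplotlib 3.10.9. Alternatives were DESeq2 1.42.0, RLE factors, total counts only, no filter, limma 3.58.1 on log2 FPKM with pseudocounts of 1 and 0.1, TMM without *Adipoq* and mitochondrially encoded genes, the replicate number as a block, and fits leaving out 1 library at a time. In a further alternative, natural splines (5 degrees of freedom) of GC content and length of the longest transcript, estimated where the mean log2 CPM exceeded 3, were subtracted from each library. Some of these methods, but not the fit without the filter, were run on simulated counts. The simulation gave every gene the common dispersion, so differences in spread between genes were not covered. Fold changes from limma are on the log2(FPKM + pseudocount) scale.

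Total counts were 17183358 to 20871173 per library, and p-values measure the spread between pools, less so in the fit without the filter. The text names the members, genes of the pathway lists that passed an adjusted p under 0.05 or had groups without overlap at an unadjusted p under 0.05, the 2 most abundant genes of each pathway list, and the 3 protein-coding genes most correlated with *Ace* and with *Ren1*. Genes named outside this rule, such as *Anpep*, *Lnpep*, *Akr1b7*, *Tsc22d3* and single markers, were chosen after their values were seen. The members and lists were chosen with earlier results of these data known. A few genes of the lists and the ratio to one of them are not reported here, and protein sequences were not used here.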

Additional observations from a re-analysis of the deposited data

How the results depend on the processing

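*Agt*, *Agtr1a* and *Mas1* kept their direction and stayed above an adjusted p of 0.05 in all alternatives run. *Ren1* reversed to −0.084 without Control replicate 2, and ranged from −0.084 to 0.33 with single libraries left out. *Ace* stayed below 0 throughout, at −0.89 to −0.65 with single libraries left out, and lost its call at −0.74 and −0.76 with limma on FPKM with pseudocounts of 1 and 0.1. *Mme* (−0.52 to −0.26 with single libraries left out) passed at −0.41 without the filter on low counts and at −0.62 after the GC content and length correction, and *Enpep* (−0.46 to −0.23) passed at −0.35 without the filter. Members lower at an adjusted p under 0.05 numbered 3 without the filter, 0 with either limma fit, 2 after the GC content and length correction and 0 to 1 with single libraries left out, beside 1 by edgeR. Calls over all genes moved too. Of the 16017 genes tested by edgeR, where 361 were lower, 1016 were lower without the filter and 300 after the correction. With limma, 118 and 109 were lower at pseudocounts of 1 and 0.1. Without the filter the SE varied little between genes, at 0.11 for each of *Ren1*, *Mme*, *Enpep* and *Mep1b*. By edgeR with the filter these were 0.21, 0.14, 0.12 and 0.30. Calls made without the filter therefore reflect less of each gene's own spread between pools. The cause of these differences between settings was not tested.

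Over all genes, 63 were higher and 361 lower by edgeR. Higher and lower genes numbered 178 and 746 by DESeq2, 301 and 1038 without the filter, 10 and 118 with limma and a pseudocount of 1, and 10 and 109 with a pseudocount of 0.1. Total counts alone left 195 lower, and the GC content and length correction gave 97 higher and 300 lower. With single libraries left out, 5 to 162 were higher and 34 to 571 lower. Other pathway genes lower (1 by edgeR) numbered 2 by DESeq2, 2 after the GC content and length correction (*Mep1b* and *Cltrn*, not *Ggt1*), 0 with RLE factors, total counts only and limma, 5 without the filter and 0 to 2 with single libraries left out. Marker genes lower (4, each counted once) numbered 2 with total counts only, 9 without the filter, 1 with either limma fit and 1 to 5 with single libraries left out, and marker genes higher (1) numbered 3 without the filter, 0 with limma and after the GC content and length correction, and 0 to 3 with single libraries left out.

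Replicate numbers are shared between the groups, but nothing in the labels ties them to a batch, and the correlations of same-numbered libraries' deviations were 0.054, 0.154 and 0.173. Correlations between libraries of different numbers lay between −0.182 and 0.021. These values share group means and are not independent, and a pairing of the libraries was not tested. With the replicate number as a block, 224 genes were higher and 705 lower, *Ace* was at −0.76 (edgeR adjusted p 0.00815), no member's call changed, 3 other pathway genes (*Ggt1*, *Mep1b* and *Cltrn*) and 7 marker genes were lower and 2 marker genes higher. The differences of mean FPKM of the members and the ratios of *Ace* to the other peptidases were not paired. With single libraries left out, the log2 ratios of mean FPKM were −0.090 to 0.33 for *Ren1*, −0.38 to −0.063 for *Agt*, −0.90 to −0.65 for *Ace*, −0.13 to −0.020 for *Agtr1a*, −0.53 to −0.28 for *Mme*, −0.46 to −0.25 for *Enpep* and −1.45 to −0.83 for *Mas1*. The change of the log2 ratio of *Ace* was −0.44 to −0.19 to *Mme* and −0.52 to −0.25 to *Enpep*. With 3 pools a group, no exact test of a single value can pass 0.05, and at the depth of these libraries *Agtr1b* and *Agtr2* cannot be compared.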
